A study of Mus musculus with 4 samples.

Results

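Described here are 39 genes of the interferon response and of PML nuclear bodies in mouse hippocampus, of 37325 genes named on the arrays. They were chosen by symbol as interferon-induced genes and nucleic acid sensors, with Pml and Sp100 of nuclear bodies, and every non-control probe carrying one of these symbols was taken. All 39 were on the array, through 74 probes. The study measured hippocampal expression in wild-type (WT) mice and in mice with 1 knocked-out copy of Rp58 (hetero-KO), a transcriptional repressor of the zinc finger class whose current symbol is Zbtb18. The 4 groups were WT and hetero-KO at 4 months, and WT and hetero-KO at 18 months, each as 1 one-colour array of RNA pooled from 3 samples. For the older mice the age label gives 18 months, the titles 1.5 years and the descriptions a range of 12 to 18 months. Neither sex nor strain is given in the sources used here, nor which stretch of Rp58 the knockout lacks.

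Interferons are secreted proteins that cells release when they sense foreign or misplaced nucleic acid. Type I interferon acts through its receptor on a complex that holds Stat2 and Irf9 and binds the interferon-stimulated response element (ISRE) in front of its target genes, while type II interferon acts through the gamma-activated sequence (GAS). The targets include RNA and DNA sensors, antiviral effectors, the ubiquitin-like protein Isg15 and guanylate-binding GTPases. Pml and Sp100 form the scaffold of PML bodies, nuclear dots that hold SUMO-modified proteins, and both genes are interferon-inducible. In brain, microglia, astrocytes and endothelial cells respond strongly to interferon, and neurons also express many of these genes.

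The 75th percentile of signal was 1714 to 2111 on the 4 arrays, and 77.9% to 81.9% of spots passed the scanner software's test for being well above background, called measured below. The 4 arrays shared 1 slide and 1 scan day. All 12 markers of hippocampal principal neurons were measured on every array. The arrays differed in what they held beside hippocampus: summed levels of 11 striatum markers were 21.7, 52.5, 21.9 and 23.7 in WT and hetero-KO at 4 months and WT and hetero-KO at 18 months, and those of 11 thalamus and habenula markers 33.7, 26.5, 10.1 and 9.65. The Y-linked Eif2s3y was not measured in hetero-KO at 4 months, at least 100-fold below WT of that age, and Xist was measured on the 4-month arrays but on neither 18-month array, so that the pools differed in sex makeup. In the age comparisons sex makeup and age cannot be told apart, and in the comparison of the genotypes at 4 months sex makeup and genotype cannot. Zbtb18 itself had levels of 17.5, 15.2, 18.9 and 21.4 in the same order, a log2 difference of hetero-KO from WT of −0.20 at 4 months and 0.18 at 18 months. Neither exceeded the error of 0.20 that the scanner software gives for a pair of spots, and a probe outside the deleted stretch would say nothing of the genotype.

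Levels are the processed signal divided by the array's 75th percentile, from the probe with the highest mean level of each gene. They are given in the order WT and hetero-KO at 4 months, then WT and hetero-KO at 18 months. Differences are on the log2 scale, hetero-KO minus WT or 18 minus 4 months. With 1 array a group there was no replicate check, and precision is limited by that number. The scanner software's error for a difference was 0.20 for most members and 0.32 at most where both arrays measured the gene. In bulk tissue, fewer cells of a type and less RNA per cell cannot be told apart.

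The promoters of these genes held the letters of the ISRE more often than promoters in general, which is a description of their sequence and not of binding. In RefSeq promoter windows of GRCm38.p6, from 250 bases before to 50 bases after a gene's start, the ISRE core, GAAA and GAAA with 2 free bases between, was found on either strand in 14 of the 29 members with a window (48.3%) and in 3.99% of 27025 genes. The GAS letters TTCNNNGAA were in 8 of 29 members (27.6%) and 9.55% of genes, and in 24 windows of the table the 2 motifs overlapped. Dhx58, Zbp1, Mx1, Mx2, Rtp4, Iigp1, Usp18, Parp9, Parp14 and Ifi27 had no entry in the table. The stretches below show 5 members whose values are given further on: Ifit1, Ifit3 and Isg15, whose hetero-KO levels were above the WT level at both ages, Bst2, which stood highest in WT at 18 months, and Gbp2, which stood highest in hetero-KO at 18 months. Capitals mark ISRE cores on either strand, and each stretch runs 5′ to 3′ on the gene's own strand.
Ifit1 (chr19:34640769-34640848, plus strand): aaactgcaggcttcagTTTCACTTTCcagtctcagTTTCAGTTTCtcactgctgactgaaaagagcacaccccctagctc
Ifit3 (chr19:34583372-34583451, plus strand): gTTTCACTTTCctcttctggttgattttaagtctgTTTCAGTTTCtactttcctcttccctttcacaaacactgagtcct
Isg15 (chr4:156200840-156200919, minus strand): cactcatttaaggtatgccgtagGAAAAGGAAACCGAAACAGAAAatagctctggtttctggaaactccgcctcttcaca
Bst2 (chr8:71537552-71537631, minus strand): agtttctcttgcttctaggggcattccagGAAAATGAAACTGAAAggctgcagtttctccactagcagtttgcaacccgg
Gbp2 (chr3:142620569-142620648, plus strand): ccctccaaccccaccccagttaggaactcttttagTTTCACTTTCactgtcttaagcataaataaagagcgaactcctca

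Ifit1, Ifit3 and Bst2 each held 2 cores, Isg15 held 3 overlapping ones and Gbp2 held 1. The 14 members with an ISRE core had a median log2 difference of 0.08 between the genotypes at 4 months and the 15 without one 0.05, and at 18 months the medians were 0.10 and 0.05. Between the ages they were 0.11 and 0.09 in WT and 0.08 and 0.14 in hetero-KO. Oasl2, Irf7 and Ifi44, among the members with the largest differences, had no such letters in their windows.

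The WT array of 4 months was the low one for most of these genes. Among the 38 members measured on all 4 arrays, it held the lowest level for 21 (55.3%, against 27.1% of 27380 genes) and the highest for 2 (5.26% against 24.0%), Eif2ak2 and Parp9. The hetero-KO array of 18 months held the highest level for 20 (52.6% against 30.3%) and the lowest for 1, Eif2ak2 (2.63% against 24.2%). Hetero-KO at 4 months was the highest array for 11 members (28.9% against 17.0%) and also the lowest for 11 (28.9% against 32.0%), while WT at 18 months was the highest and the lowest for 5 each (13.2%, against 28.7% and 16.7%).

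**Figure D1:**
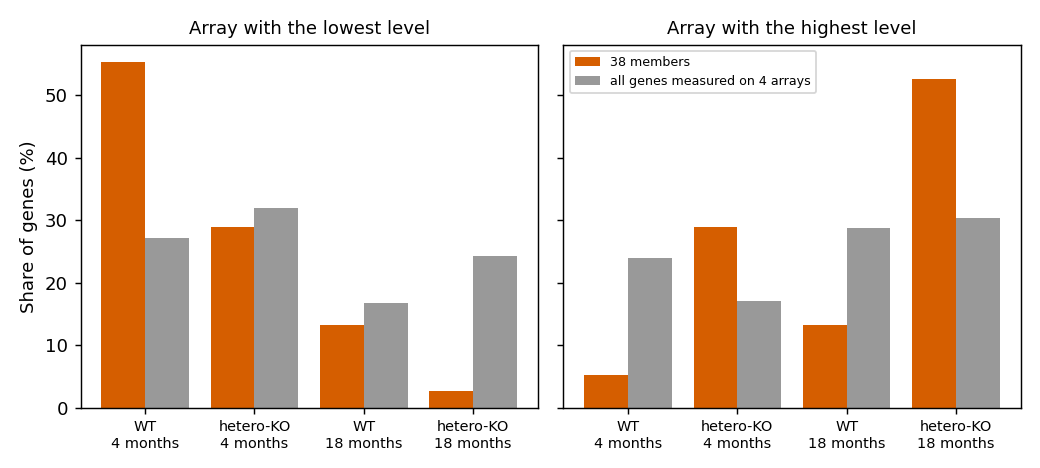
Share of genes (vertical axis, percent, from 0) whose lowest level (left) or highest level (right) was on each of the 4 arrays, for the 38 members (orange) and for all 27380 genes measured on all 4 arrays (grey). The lowest level was in WT at 4 months for 55.3% of members and 27.1% of all genes, and the highest in hetero-KO at 18 months for 52.6% and 30.3%.

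Where the lowest or highest array was set apart from all others by over 0.2 on the log2 scale, that array was most often WT at 4 months or hetero-KO at 18 months. WT at 4 months lay that far below the rest for Irf7, Ifit3, Oasl2, Mx2, Rtp4, Gbp3, Usp18 and Ifi44 (8 of 38, 21.1%, against 2.7% of all genes) and above it for Parp9 (2.63% against 4.21%). Hetero-KO at 4 months stood above the rest for Cmpk2, Usp18 and Ifi44 (7.89% against 3.52%) and below it for 0 (against 5.83%). WT at 18 months stood above for Bst2, Ifi27 and Lgals3bp (7.89% against 4.36%) and below for Dhx58 (2.63% against 3.14%). Hetero-KO at 18 months stood above for Dhx58, Zbp1, Samhd1, Gbp2, Parp14 and Sp100 (6 of 38, 15.8%, against 5.0%) and below for 0 (against 4.66%).

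**Figure D2:**
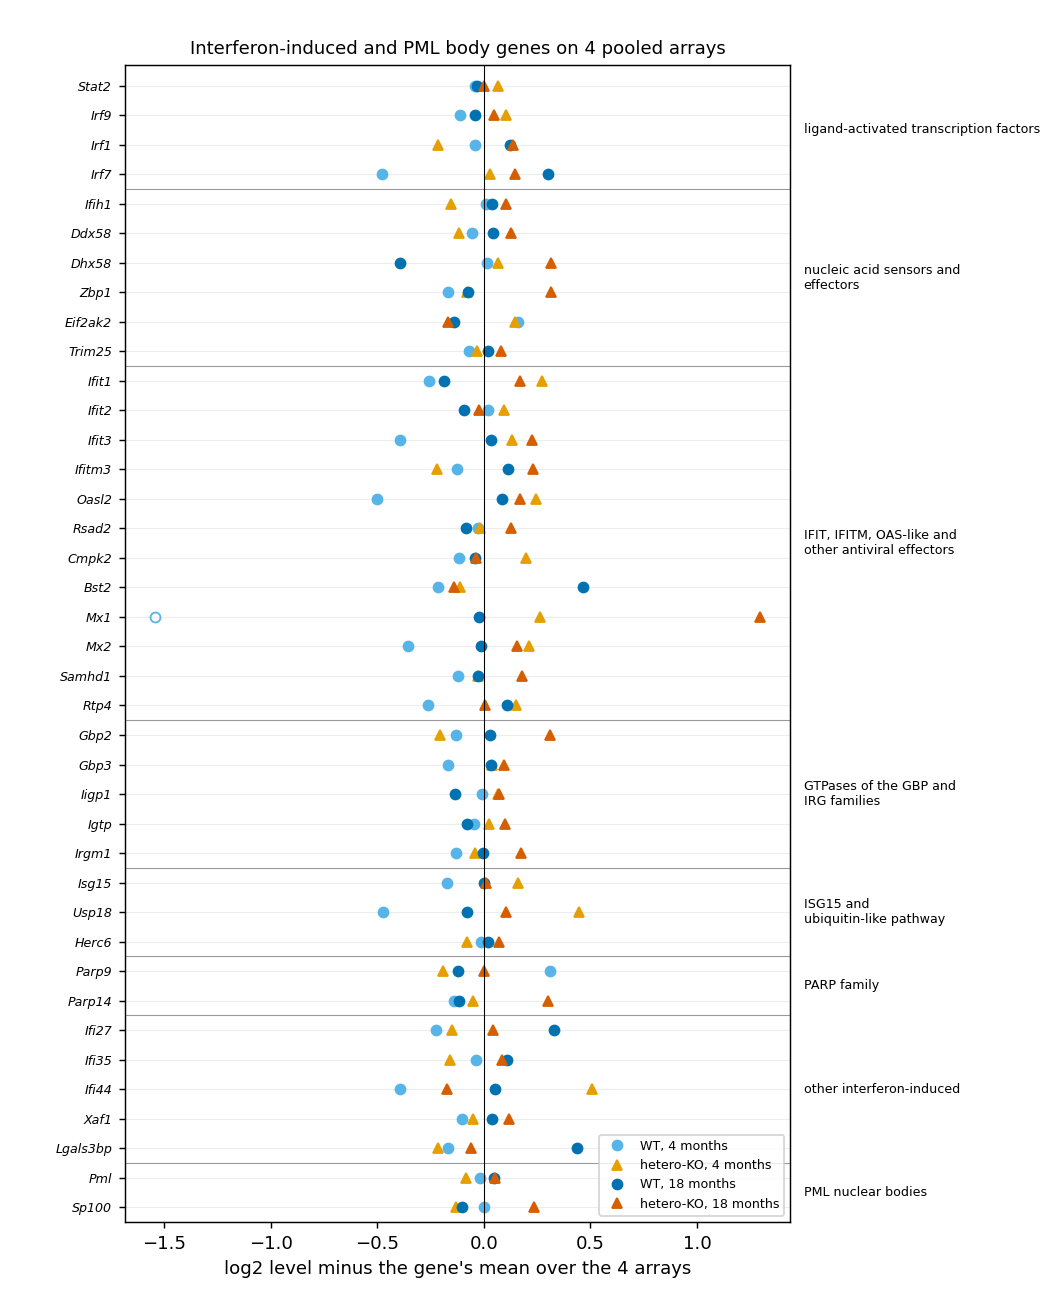
Log2 level of each of the 39 members minus its own mean over the 4 arrays (horizontal axis), grouped by role; each point is 1 pooled array, circles for WT, triangles for hetero-KO, and the open circle a level not well above background. The light blue points of WT at 4 months lie leftmost for Irf7, Ifit3, Oasl2, Usp18 and Mx1, and WT at 18 months lies rightmost for Bst2, Ifi27 and Lgals3bp.

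Of the transcription factors, Irf7 differed most. Irf7, which drives transcription of type I interferon genes, had levels of 0.457, 0.648, 0.784 and 0.703 (probe at chr7:148449104-148449163, mm9), so that WT at 4 months was low and the other arrays were closer to one another. The difference between genotypes was 0.50 at 4 months and −0.16 at 18 months, and that between ages 0.78 in WT and 0.12 in hetero-KO. Its second probe, 0.0230, 0.0291, 0.0337 and 0.0310, kept the same order of the arrays. Irf9, the DNA-binding partner of Stat2, had levels of 1.05, 1.22, 1.1 and 1.17, both hetero-KO values above both WT values, with differences of 0.22 and 0.09. Its second probe, at 0.52, 0.446, 0.361 and 0.382, was highest in WT at 4 months and gave the opposite sign at that age (−0.22). Stat2 spanned only 1.68 to 1.81. Irf1, a factor induced by type II interferon, had levels of 0.998, 0.886, 1.12 and 1.13, so the older arrays were higher (0.16 in WT, 0.35 in hetero-KO).

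Among the sensors, Dhx58 and Zbp1 were highest in hetero-KO at 18 months. Dhx58, the RIG-I-like protein LGP2 that tunes RNA sensing, had levels of 0.0522, 0.0541, 0.0394 and 0.0643 (probe at chr11:100556271-100556330, mm9). The 4-month arrays were near each other and the 18-month arrays lay on either side of them, with a genotype difference of 0.05 at 4 months and 0.71 at 18 months. Zbp1, a sensor of Z-form nucleic acid, had levels of 0.0285, 0.0303, 0.0304 and 0.0398, 3 arrays close together and hetero-KO at 18 months above them, by 0.39 over WT of that age and also by 0.39 over the younger hetero-KO array. Ifih1 (MDA5) and Ddx58 (RIG-I), the sensors of long and of short double-stranded RNA, had levels of 0.131 to 0.157 and 0.266 to 0.315, in both cases lowest in hetero-KO at 4 months and highest in hetero-KO at 18 months. Trim25, a ubiquitin ligase that acts on RIG-I, lay between 3.17 and 3.52. Eif2ak2 (PKR), a kinase that stops translation on double-stranded RNA, ran the other way, with levels of 0.144, 0.143, 0.117 and 0.115, lower at 18 months (−0.30 in WT and −0.31 in hetero-KO) and alike in the 2 genotypes.

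Most antiviral effectors had a higher level in hetero-KO than in WT at 4 months. Oasl2, of the oligoadenylate synthetase family, had levels of 0.218, 0.366, 0.328 and 0.347 (probe at chr5:115362168-115362227, mm9), with WT at 4 months low and the other 3 close together. Ifit3, which forms complexes with other IFIT proteins, had levels of 0.606, 0.873, 0.815 and 0.931, again lowest in WT at 4 months. Ifit1, which binds RNA with an incompletely methylated cap, had levels of 0.0901, 0.130, 0.0946 and 0.121 (probe at chr19:34723827-34723886, mm9). For Ifit1 both WT arrays were below both hetero-KO arrays, with differences of 0.53 at 4 months and 0.35 at 18 months, while the 2 ages of a genotype lay within 0.10. Ifit3 differed by 0.53 and 0.19 and Oasl2 by 0.74 and 0.08 between the genotypes.

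Mx1 and Mx2, dynamin-like GTPases that block viral replication, were both lowest in WT at 4 months. Mx2 had levels of 0.0681, 0.101, 0.0863 and 0.0971, a genotype difference of 0.57 at 4 months and 0.17 at 18 months. Mx1 was dim, at 0.0139, 0.0114 and 0.0284 in hetero-KO at 4 months, WT at 18 months and hetero-KO at 18 months (probe at chr16:97668644-97668703, mm9), and its 0.00397 in WT at 4 months was not well above background. By bounds it was at least 2.41-fold higher in hetero-KO than in WT at 4 months, and at 18 months it was 2.49-fold higher, a log2 difference of 1.32 that was 0.29 with normexp background correction. Many inbred mouse strains carry a defective Mx1 allele, and the strain here is not given. A second Mx1 probe was not measured on any array.

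The other effectors varied in which array stood out. Bst2 (tetherin), which holds budding virus on the cell surface, had levels of 0.772, 0.829, 1.24 and 0.815, with WT at 18 months high and the other 3 arrays close together (probe at chr8:74058603-74058662, mm9). Rtp4, a chaperone of receptor transport with antiviral activity, had levels of 0.509, 0.679, 0.658 and 0.613, lowest in WT at 4 months. Cmpk2, a mitochondrial nucleotide kinase, had levels of 0.812, 1.01, 0.855 and 0.858, with hetero-KO at 4 months high. Rsad2 (viperin), which makes an antiviral nucleotide and lies beside Cmpk2, did not follow it, at 0.0674, 0.0679, 0.0648 and 0.0752. Ifitm3, which blocks viral entry at endosomes, had levels of 1.68, 1.57, 1.98 and 2.15, both older arrays above both younger ones. Samhd1, which degrades nucleotides, lay between 1.20 and 1.48, highest in hetero-KO at 18 months, and Ifit2 between 0.121 and 0.138.

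The GTPases were higher in hetero-KO at 18 months for 5 of 5, where 47.9% of all genes were, by a median of 0.18. The differences ran from 0.06 to 0.28, against a scanner software error of 0.20. Gbp2, which attacks pathogen vacuoles, had levels of 0.351, 0.333, 0.392 and 0.477, with hetero-KO at 18 months high. Its genotype difference was −0.08 at 4 months and 0.28 at 18 months, and its age difference 0.16 in WT and 0.52 in hetero-KO. Gbp3 had levels of 0.401, 0.462, 0.461 and 0.480, with WT at 4 months below 3 like arrays. The immunity-related GTPases Iigp1, Igtp and Irgm1 spanned 0.226 to 0.261, 0.801 to 0.906 and 0.513 to 0.633, each highest in hetero-KO at 18 months with a genotype difference of 0.18 to 0.21 at that age.

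In the Isg15 pathway the protease differed more than the modifier. Usp18, which removes Isg15 from proteins and damps signalling at the type I receptor, had levels of 0.0831, 0.157, 0.109 and 0.124 (probe at chr6:121220874-121220933, mm9). WT at 4 months was the lowest and hetero-KO at 4 months the highest, and the older arrays lay between them, a genotype difference of 0.91 at 4 months and 0.18 at 18 months. Isg15 had levels of 0.636, 0.799, 0.716 and 0.722 in the same order of arrays, with a genotype difference of 0.33 at 4 months and 0.01 at 18 months. Herc6, the main ligase of Isg15 in mice, lay between 0.0249 and 0.0276. Of the ADP-ribosyltransferase family, Parp9 had levels of 0.263, 0.186, 0.195 and 0.212, with WT at 4 months above 3 like arrays, and Parp14 0.269, 0.286, 0.273 and 0.365, with hetero-KO at 18 months high.

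Of the other interferon-induced members, Ifi44, Ifi27 and Lgals3bp varied most. Ifi44 had levels of 0.0239, 0.0447, 0.0326 and 0.0279, with hetero-KO at 4 months high and WT at 4 months low. Ifi27, a small mitochondrial protein, had levels of 17.0, 17.9, 24.9 and 20.4, with WT at 18 months high. Lgals3bp, a secreted glycoprotein that binds galectins, had levels of 2.81, 2.72, 4.27 and 3.03, also high in WT at 18 months, as Bst2 was. Ifi35 and Xaf1 spanned 0.825 to 0.993 and 0.499 to 0.582, with both older arrays above both younger ones.

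The 2 PML body genes differed little. Pml had levels of 0.679, 0.648, 0.711 and 0.714, with genotype differences of −0.07 at 4 months and 0.00 at 18 months. Sp100 had levels of 0.0585, 0.0534, 0.0545 and 0.0688, and its hetero-KO array of 18 months was above the other 3, by 0.34 over WT and 0.37 over the younger hetero-KO array. A second measured probe of Pml gave the opposite sign at 4 months and one of Sp100 the opposite sign at 18 months. Of 30 PML body partners such as Daxx, Atrx and the SUMO genes, none was 1.5-fold apart between the genotypes at either age or between the ages in either genotype, with medians of 0.01 and 0.05 between the genotypes and 0.01 and 0.09 between the ages.

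Between the genotypes at 4 months, Usp18 was 1.89-fold, Ifi44 1.87-fold and Oasl2 1.68-fold higher in hetero-KO. These were the 3 of 38 measured members at least 1.5-fold higher, where 1.82% of 28408 genes were, and 0 members were 1.5-fold lower, where 2.71% of genes were. With probe means per gene 2 were higher and 2 lower, the lower ones being Ifih1 (−1.41) and Ifi44 (−1.45). In all, 26 of 38 were higher, with a median of 0.08 against −0.02 over all genes, of which 44.4% were higher. At 2-fold, 0 of the 38 were apart, against 0.704% of genes higher and 0.634% lower, and Mx1, measured at this age in hetero-KO alone, was higher by its bound of 2.41-fold. The effectors stood at a median of 0.32, with 10 of 11 measured members higher and Ifitm3 lower at −0.09. Next in size were Mx2 (0.57), Ifit1 and Ifit3 (0.53 each) and Irf7 (0.50), and among the lower members Parp9 (−0.50), Irf1 and Ifih1 (−0.17 each), Sp100 (−0.13) and Ifi35 (−0.12). Ifi44 stood at 0.45 with normexp background correction.

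Between the genotypes at 18 months, Mx1 was 2.49-fold and Dhx58 1.63-fold higher in hetero-KO and Bst2 1.52-fold lower. They were the only members 1.5-fold apart of 39 measured, 2 higher where 2.11% of 27625 genes were and 1 lower where 2.64% were, and with normexp background 0 were. At 2-fold Mx1 alone remained, against 0.525% of genes higher and 0.612% lower. The median was 0.08 against −0.01 over all genes, and 31 of 39 were higher where 47.9% of all genes were. Parp14 (0.42), Zbp1 (0.39) and Ifit1 (0.35) followed in size, and on the lower side Lgals3bp (−0.49), Ifi27 (−0.29), Ifi44 (−0.23) and Irf7 (−0.16). In the authors' deposited table, whose 18-month arrays are unknown, Mx1 stood at 0.72, Dhx58 at 0.06, Bst2 at −0.02 and Irf7 at 0.45. The 5 other interferon-induced members had a median of −0.23, and all but Xaf1 (0.08) were lower.

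The members with the largest genotype difference at one age were mostly not those at the other. Over the 38 members the differences at the 2 ages, which share no array, had a Pearson correlation of −0.06, and over all 27380 genes one of 0.19; this is across genes, which are not independent replicates. Hetero-KO was above WT at both ages for 21 members (55.3%, against 27.0% of all genes) and below at both for Eif2ak2, Ifi35 and Lgals3bp (7.89% against 34.9%). By the probe used for each gene, both hetero-KO arrays were above both WT arrays for 15 members (39.5% against 12.0%) and below for 0 (against 21.1%). Among the 15 were Stat2, Irf9, Ifit1, Ifit3, Isg15, Usp18, Mx2 and Oasl2. Many of these differences were small. The genotypes differed by more than the scanner software's error for 12 of 38 members at 4 months and 13 of 39 at 18 months. For the members just named, differences at 18 months ran from 0.01 for Isg15 to 0.35 for Ifit1. Of them only Ifit1 exceeded the error at both ages. Its difference at 18 months was 0.22 with normexp background correction and 0.06 in the authors' deposited table, whose 18-month arrays are unknown.

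**Figure D3:**
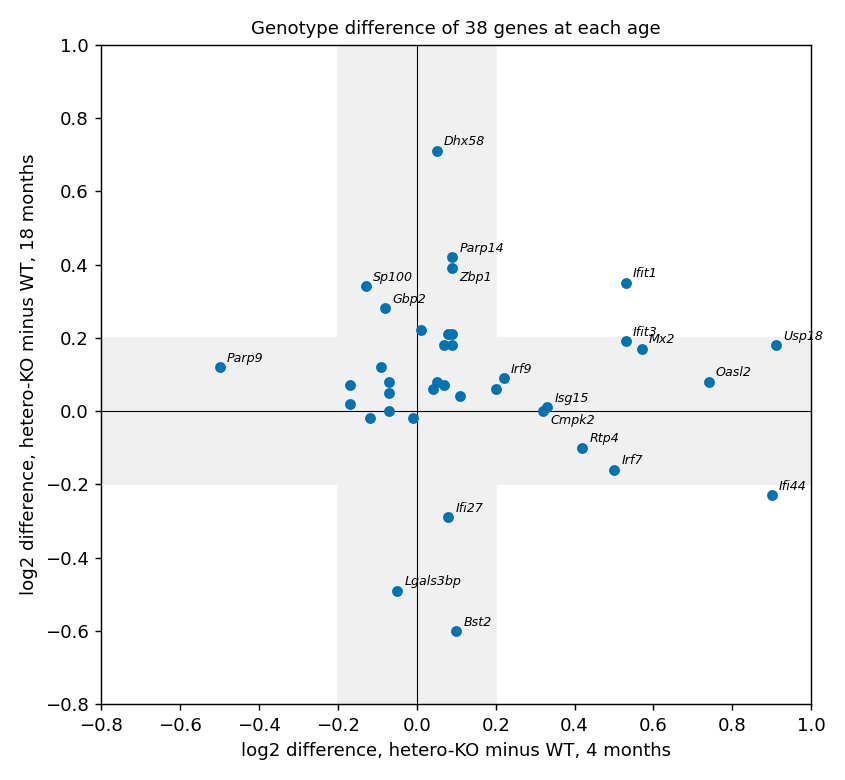
Log2 difference of hetero-KO from WT at 4 months (horizontal) and 18 months (vertical) for the 38 members measured on all arrays; each point is a gene, and the grey bands span the scanner software's usual error of 0.20 on each axis. Usp18, Ifi44 and Oasl2 lie far right within or near the horizontal band, Dhx58 lies high and Bst2 and Lgals3bp lie low within the vertical band, and Ifit1 lies outside both bands.

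Over both ages, limma with Benjamini-Hochberg adjustment over 29088 genes called 0 of 39 members for genotype, where 3 genes rose (0.0103%) and 0 fell (0.0%). This additive fit has 1 residual degree of freedom, and the spread behind its p-values is that of 4 pooled arrays, not of mice. Its genotype estimate takes in the 4-month arrays, where sex makeup and genotype cannot be told apart. At an unadjusted p under 0.05, 5 members were higher (5.14% of all genes were) and 0 lower (6.3% were). They were Mx1 (log2 1.56 ± 0.28 SE, limma adjusted p = 0.245), whose fit takes the level of WT at 4 months that was not well above background as if measured, Ifit1 (0.44 ± 0.10 SE, adjusted p = 0.32), Ifit3 (0.36 ± 0.10 SE, adjusted p = 0.355), Usp18 (0.55 ± 0.19 SE, adjusted p = 0.424) and Mx2 (0.37 ± 0.14 SE, adjusted p = 0.435). The median over the members was 0.12, against −0.02 over all genes.

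Between the ages in WT, Irf7 was 1.71-fold, Bst2 1.60-fold, Lgals3bp 1.52-fold and Oasl2 1.51-fold higher at 18 months. These 4 were 1.5-fold higher of 38 members, where 2.56% of 28271 genes were, and 0 were 1.5-fold lower, where 2.72% were. With probe means per gene 3 were higher and 3 lower, and the values of the authors' deposited table gave 1 higher and 5 lower. Mx1, which was not measured in WT at 4 months and so is not among the 38, was at least 1.98-fold higher at 18 months. In all 30 of 38 were higher, with a median of 0.09 against 0.04 over all genes, of which 58.4% were higher. At 2-fold, 0 of the 38 were apart, against 0.775% of genes higher and 0.828% lower. Ifi27 (0.55), Ifi44 (0.45) and Ifit3 (0.43) followed, and on the lower side Parp9 (−0.43), Dhx58 (−0.40), Eif2ak2 (−0.30), Iigp1 (−0.13) and Ifit2 (−0.11). This comparison and that of the genotypes at 4 months share the WT array of 4 months, so the 2 sets of values are not independent. In the authors' deposited table Irf7, Bst2, Lgals3bp and Oasl2 were lower at 18 months in WT, by −0.20, −0.96, −0.76 and −0.15, and so was Ifi27, by −0.85. No scanner file holds the values of that table's 18-month columns, so the arrays behind them are unknown.

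In hetero-KO most members were also higher at 18 months, but Irf7, Bst2, Lgals3bp and Oasl2 were not 1.5-fold apart. Mx1 was 2.04-fold higher and Ifi44 1.61-fold lower at 18 months, the only 2 of 39 members at least 1.5-fold apart, where 3.68% of 27613 genes were higher and 3.06% lower. At 2-fold Mx1 alone was apart, against 1.1% of genes higher and 1.11% lower. With normexp background these 2 stood at 0.37 and −0.25 and neither was 1.5-fold apart. The median was 0.14 against 0.04 over all genes, and 26 of 39 were higher where 59.4% of all genes were. Gbp2 (0.52), Ifitm3 (0.45), Zbp1 (0.39) and Sp100 (0.37) followed, and on the lower side Usp18 (−0.34), Eif2ak2 (−0.31), Cmpk2 (−0.24) and Isg15 and Rtp4 (−0.15 each).

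Over both genotypes, limma with Benjamini-Hochberg adjustment called 0 of 39 members for age, where 1.08% of 29088 genes rose and 0.56% fell. The nearest was Ifitm3 (log2 0.34 ± 0.07 SE, limma adjusted p = 0.0791), then Mx1 (1.28 ± 0.28 SE, limma adjusted p = 0.0895), with the same limit as for genotype, and Ifi27 (0.37 ± 0.09 SE, limma adjusted p = 0.11). At an unadjusted p under 0.05, 10 members were higher and 1, Eif2ak2, lower, where 16.7% of all genes were higher and 6.91% lower. The other 7 higher were Gbp2, Ifi35, Ifit3, Irf1, Irf7, Irgm1 and Lgals3bp. Both older arrays were above both younger ones for 16 members (42.1%, against 32.4% of all genes) and below for Eif2ak2 and Ifit2 (5.26% against 18.0%). With the values of the authors' deposited table the same fit called 15 of 39 members, 4 higher and 11 lower at 18 months, and 4595 of 29088 genes higher and 5260 lower.

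The interferon genes themselves were mostly dim, and their receptors differed little between the arrays. Of 21 interferon genes listed, Ifng and Ifne were not well above background on any array. Ifnb1 (interferon beta) was measured only in WT at 4 months, at 0.0324, at least 4.82-fold above hetero-KO of that age and 4.26-fold above WT at 18 months. This rests on 1 probe bright on 1 array. Of all 56605 probes 0.389% had a signal on that array at least 4-fold that of every other array, among them probes of Ifi44 and Ifih1 described below. Ifna4 and Ifna12 were also measured on 1 array each, and Ifna1 had levels of 0.0685, 0.0800, 0.0411 and 0.0953, 2.32-fold higher in hetero-KO at 18 months. The receptor genes spanned 4.61 to 5.48 for Ifnar1, 1.56 to 1.79 for Ifnar2, 1.23 to 1.62 for Ifngr1 and 2.97 to 3.13 for Ifngr2. None of the 11 receptor and kinase genes was 1.5-fold apart between the genotypes at either age or between the ages in either genotype, and their medians ranged from −0.05 to 0.12. Limma called 0 of them. At an unadjusted p under 0.05, 2 were higher and 1 lower in hetero-KO, where 5.14% and 6.3% of all genes were. By age 4 were higher and 0 lower at 18 months, where 16.7% and 6.91% of all genes were.

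Other interferon-induced genes, 72 of 78 listed being measured on both 4-month arrays, had a median of −0.01 between the genotypes at 4 months. At that age 33 of 72 were higher in hetero-KO, where 44.4% of all genes were. At 18 months the median was 0.10, and 49 of 71 were higher, where 47.9% of all genes were. At 4 months 7 were 1.5-fold higher and 2 lower, where 1.82% and 2.71% of all genes were, and at 18 months 1 was higher and 0 lower, where 2.11% and 2.64% were. Oas3, an oligoadenylate synthetase, was measured in WT at 4 months alone, at 0.0416, and so is not among the 72. By bounds it was there at least 6.19-fold above hetero-KO of that age and 5.48-fold above WT at 18 months, a probe bright on 1 array alone as that of Ifnb1 was. The largest was Ido1, an enzyme of tryptophan breakdown, at 0.0760, 0.292, 0.0418 and 0.0375, so that hetero-KO at 4 months alone was high. Cxcl10, a chemokine of the interferon response, had levels of 0.0569, 0.147, 0.142 and 0.239. It was higher in hetero-KO by 1.37 at 4 months and 0.75 at 18 months, and its age difference was 1.32 in WT and 0.70 in hetero-KO. Neither effect passed (limma adjusted p = 0.223 for genotype and 0.0623 for age). Ifi27l2a, a relative of Ifi27, had levels of 0.484, 1.06, 1.16 and 1.03, the pattern of Irf7 and Oasl2 with WT at 4 months low. Ms4a4b, a lymphocyte membrane protein, was 3.37-fold and Casp4, an inflammatory caspase, 2.03-fold higher at 18 months in hetero-KO, with 1.75-fold and 1.32-fold in WT.

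By limma 1 of 72 of these genes rose with age and 0 fell, while at an unadjusted p under 0.05 there were 29 higher and 6 lower, where 16.7% and 6.91% of all genes were. It was Psmb10, an immunoproteasome subunit (log2 0.34 ± 0.04 SE, limma adjusted p = 0.0497). Limma called 0 genes for age without the variance trend or with no filter on dim genes. Neither Psmb10 nor Cish and Zbtb16 below passed there. Of 20 negative regulators, Cish, a suppressor of cytokine signalling, fell with age (log2 −0.50 ± 0.06 SE, limma adjusted p = 0.0484), and Rnf125, a ubiquitin ligase of RIG-I, was 2.02-fold higher with age in hetero-KO. Of the PML body partners Zbtb16, a BTB zinc finger protein, rose with age (0.43 ± 0.05 SE, limma adjusted p = 0.046). Of 19 genes of sensing and induction upstream of interferon limma called 0 for age, with 5 higher and 1 lower unadjusted. At 4 months 15 of them were lower and 4 higher in hetero-KO (median −0.08), where 44.4% of all genes were higher. For genotype limma called 0 genes of these 4 lists. At an unadjusted p under 0.05, 6 of the interferon-induced genes were higher and 4 lower in hetero-KO, 2 negative regulators were higher and 1 lower, and 2 PML body partners and 2 sensing genes were higher. Of all genes 5.14% were higher and 6.3% lower by that measure.

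Markers of several cell types moved with some of these comparisons. Of 12 microglia markers, all measured on every array, 9 rose with age by limma (Trem2 0.84 ± 0.07 SE, limma adjusted p = 0.034), where 1.08% of all genes did. Without the variance trend or with no filter on dim genes, limma called 0 genes for age. The summed level of the microglia markers was 70.2, 70.3, 89.3 and 101. At 4 months their median genotype difference was 0.05, and at 18 months 0.25. The summed level of 8 border macrophage markers was 1.75, 1.49, 1.44 and 2.10, and that of 12 endothelial markers 29.1, 25.6, 26.2 and 28.0, lower in hetero-KO at 4 months for 12 of 12. Reactive astrocyte genes were higher in hetero-KO at 18 months for 17 of 17 (median 0.37) and at 4 months for 4 of 17 (−0.08). Their list holds the member Gbp2, and also Psmb8 and Serping1 of the other interferon-induced genes. Of all genes 44.4% were higher in hetero-KO at 4 months and 47.9% at 18 months. Choroid plexus markers were lower in hetero-KO for 14 of 14 at both ages (medians −0.42 and −0.81), with summed levels of 175, 145, 210 and 163, highest in WT at 18 months as Bst2, Ifi27 and Lgals3bp were. The summed level of 12 meningeal fibroblast markers was 82.8, 70.6, 70.3 and 91.5. The members' own summed level was 39.7, 42.1, 51.5 and 46.6. The part of these markers and of neighbouring tissue in the members' differences was not tested.

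Where a member had several measured probes, they often disagreed on small differences. In sign they disagreed for 8 of 19 members between the genotypes at 4 months, 8 of 17 at 18 months, 8 of 18 between the ages in WT and 2 of 17 in hetero-KO. Of the 74 member probes, 3 were bright on 1 array alone, with a signal at least 4-fold that of every other array, as were 1.44% of all 56605 probes; against an array where the probe was not well above background the fold is smaller as a bound. Each belongs to a transcript listed under an Ensembl accession, and their sequences follow in lower case, since no part of them is singled out.
Ifi44 second probe (chr3:151409005-151409064, mm9, minus strand): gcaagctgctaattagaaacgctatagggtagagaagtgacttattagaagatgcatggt
Ifih1 second probe (chr2:62446313-62446372, mm9, minus strand): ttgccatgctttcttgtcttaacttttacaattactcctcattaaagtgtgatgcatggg
Samhd1 further probe (chr2:156945894-156945953, mm9, minus strand): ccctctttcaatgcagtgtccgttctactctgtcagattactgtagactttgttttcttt

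The Ifi44 probe was at 0.0649 in WT at 4 months and not well above background elsewhere, a difference of at least 7.82-fold, while the probe used for Ifi44 was lowest on that array. The Ifih1 probe had levels of 0.0770, 0.0122, 0.0110 and 0.0148, 5.2-fold higher in WT at 4 months than on the next array, and the probe used for Ifih1 spanned only 0.131 to 0.157. The Samhd1 probe was measured in hetero-KO at 18 months alone, at 0.0269, at least 3.24-fold above the other arrays.

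**Figure D4:**
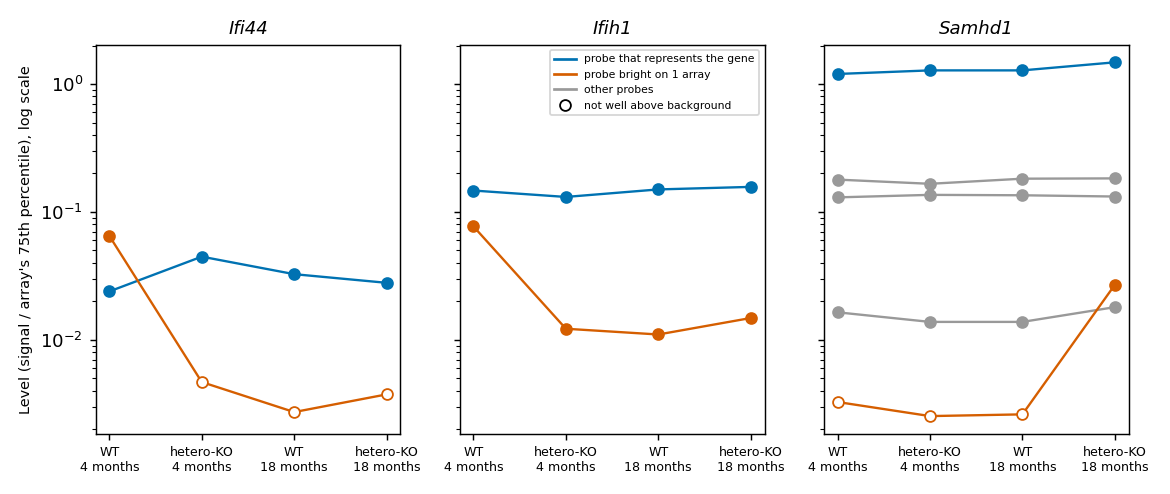
Level (signal over the array's 75th percentile, log axis) of every probe of Ifi44, Ifih1 and Samhd1 on the 4 arrays; blue is the probe that represents the gene, orange the probe bright on 1 array, grey the others, and open points were not well above background. The orange probes peak in WT at 4 months for Ifi44 (0.0649) and Ifih1 (0.0770) and in hetero-KO at 18 months for Samhd1 (0.0269), while the blue probes of the same genes vary far less.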

How the data were processed

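Each array's deposited scanner file gives linear spot intensity, made per the file headers with the protocol GE1_1105_Oct12 and mouse build mm9, and per the submitters' processing notes with Agilent Feature Extraction 11.5.1.1. The authors' deposited table holds a linear ratio of signal to a percentile. Its column medians were 0.087, 0.0842, 0.0804 and 0.0802. Its 4-month columns equal the scanner signal up to a constant, and its 18-month columns match no scanner file (highest correlation of log2 values 0.9822), so it was used only as an alternative.

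The processed signal of the 59305 non-control spots (56605 probes), less those with outlier marks, was divided by the array's 75th percentile and turned into log2 values from the deposited intensity. Spots of a probe were averaged. A probe was measured where 50% or more of its spots passed the scanner's background test, and the brightest probe by mean level stood for its gene. RefSeq accessions (GRCm38.p6) matched 32994 probes and changed 1535 symbols. A pair of arrays was compared by log2 difference, with 1.5-fold counted as apart. Where 1 array was not well above background, the fold is a bound against the higher of the dim probe's level and that array's lowest measured level.

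Genotype and age were tested with limma 3.58.1 (R 4.3.3) in an additive model with a trend in the variance and a Benjamini-Hochberg threshold of 0.05, over 29088 genes measured on at least 2 of 4 arrays; the script was tested on simulated data. Named are members with the 5 largest differences in each direction per pair, Pml and Sp100, list genes called or 2-fold apart, and fixed interferon receptor genes; 1 further gene of the rule is not reported here. Alternatives were normexp background (offset 50), quantile normalization, no filter, all 4 arrays, the mean of a gene's probes, the authors' table, no variance trend, no second factor, and a 2-fold threshold. The members and lists were chosen with earlier results of these data known.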

Additional observations from a re-analysis of the deposited data

Results flagged for a closer look

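The age difference in hetero-KO minus that in WT, which is also the genotype difference at 18 months minus that at 4 months, was 0.65 for Dhx58, −0.74 for Usp18 and −1.13 for Ifi44. For these 3 members the single array of each genotype moved in opposite directions with age, and both moves were larger than the scanner software's error. With 1 array a group these differences were not tested.

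Among probes that did not represent a gene, 2 stood well above background on the hetero-KO array of 18 months and on neither WT array: a Samhd1 probe, at 0.0269, and a Xaf1 probe, at 0.0107. Neither was above background in hetero-KO at 4 months.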

How the results depend on the processing

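No paired analysis was possible because each group held 1 array, and leaving out an array would leave no residual degree of freedom or no pair, so it was not run. Of the alternatives' values for counts and medians over the members, 64 stayed with the reported one, 17 moved and 3 reversed. Of those for single genes 195 stayed, 38 moved and 5 reversed, where only a reported difference of at least 1.5-fold could count as reversed. A count of members apart stayed if its total was within 1.5-fold, whatever the direction. So counted as staying were the ages in WT with probe means (3 higher, 3 lower) and the authors' table (1 higher, 5 lower), against 4 higher and 0 lower reported. The genotypes at 4 months with probe means (2 higher, 2 lower, against 3 and 0 reported) were too. The count of members apart, reported as 3, 3, 4 and 2 for the genotypes at 4 and 18 months and the ages in WT and hetero-KO, was 0, 1, 0 and 1 at a 2-fold threshold. With normexp background it was 0 for the genotypes at 18 months, 2 for the ages in WT and 0 in hetero-KO. For the ages in hetero-KO it was 1 with genes measured on all 4 arrays, 4 with probe means per gene and 6 with the authors' table. The members' median was 0.14 with normexp for the ages in WT, 0.15 with quantile normalization for genotype over both ages, and 0.09 with probe means per gene both for the ages in hetero-KO and for age over both genotypes. With the authors' table it was 0.00 for the genotypes at 18 months, −0.02 and −0.21 for the ages in WT and hetero-KO, 0.04 for genotype and −0.10 for age, so the 3 age medians reversed. The medians over all genes also changed sign with that table, to −0.06 for the ages in WT and −0.03 in hetero-KO, from 0.04 in each. For age 15 members passed, as did 4595 genes that rose and 5260 that fell of 29088. The same table reversed the ages in WT for Irf7 (−0.20), Bst2 (−0.96), Lgals3bp (−0.76) and Oasl2 (−0.15). Other single genes also changed sign there, such as Ifi27 (−0.85) between the ages in WT. Between the ages in hetero-KO, Gbp2 (−0.24) and Ifitm3 (−0.46) did so as well. The cause was not tested. Ifi44 reversed between the genotypes at 4 months (−1.45) with the mean of its probes, 1 of which was bright in WT at 4 months alone. The smallest limma adjusted p of a member ranged from 0.212 to 0.926 for genotype, and for age from 0.0617 to 0.319 with the scanner files and was 0.000329 with the authors' table. Over all genes, the reported age fit called 314 higher and 163 lower. It called 0 without the variance trend or with no filter on dim genes, and 4 higher and 10 lower with probe means per gene. Dim members such as Mx1 and Dhx58 are near background, which limits their differences.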
